A study of Mus musculus with 12 samples.

Results

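The genes described here encode the mouse respiratory chain and ATP synthase, in their nuclear and mitochondrial parts, and were read across 4 cell populations sorted from the large arteries of the embryo. Members were the rows of the deposited gene expression table whose symbols belong to the nuclear subunit families Nduf, Sdh, Uqcr, Cox and Atp5, together with the protein-coding rows that begin with mt-Nd, mt-Co, mt-Cytb or mt-Atp. This gave 96 genes of 33531 in the table, 83 encoded in the nucleus and 13 in the mitochondrial genome. A gene was tested where its FPKM (fragments per kilobase of transcript, scaled to the number of fragments in the library) was 1 or more in at least 3 of 12 libraries, which 78 nuclear and 12 mitochondrial members passed. The nuclear members that were not tested were Atp5l2, Cox6a2, Cox7b2, Cox8b and Cox8c, with Cox8c listed at 0 in every library, and the mitochondrial one was mt-Nd4l. Membership rests on the symbol: Cox7a2l is known as a supercomplex assembly factor, Atp5sl is known from complex I assembly, and Ndufa4 is now assigned to complex IV. Each is counted below under the complex of its symbol.

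The respiratory chain lies in the inner mitochondrial membrane. Complex I (NADH dehydrogenase) and complex II (succinate dehydrogenase) pass electrons through ubiquinone to complex III and, by cytochrome c, to complex IV (cytochrome c oxidase), which reduces oxygen. ATP synthase, complex V, uses the proton gradient this builds. Complex II is made of nuclear gene products alone, whereas the others need core subunits translated inside the mitochondrion. Mitochondrial genes are transcribed as long polycistronic RNAs from each strand and cut into mRNAs, most of which carry a short poly(A) tail; mt-Nd6 is known as the 1 protein gene of its strand, and in mammals its mRNA has no or little poly(A) tail.

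RNA was sequenced from arterial cells of embryos at embryonic day 11.5, taken from the dorsal aorta with the umbilical and vitelline arteries of 122 embryos. Embryos came from F1 females of C57BL/6 and 129S1/SVImJ mated with Ly6a-GFP transgenic males. This cross was the same for all 4 groups, and cells differed by whether they showed GFP. Cells of the hematopoietic clusters (HC) were sorted as CD31+CD144+ESAM+c-Kit+ and endothelial cells (EC) as the same without c-Kit. The groups were HC GFP+ (53000 cells over all pools), HC GFP− (413000 cells), EC GFP+ (377000 cells) and EC GFP− (791000 cells), each with 3 libraries from pooled embryos. GFP reports activity of the transgene and not a cell type, and each library averages the cells of a pool. In such bulk samples, fewer cells of a type and less RNA per cell cannot be told apart.

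The mitochondrial members are shown first by sequence, because the sharpest difference fell on the gene of the opposite strand. In the GRCm38 reference (GENCODE M21), mt-Nd6 spans chrM:13552-14070 on the minus strand and is the only member on it. Its mRNA has 28.1% G and 5.97% C, while the other 12 mitochondrial members have between 5.88% and 16.1% G. The first 60 bases of the coding sequences of mt-Nd6 (chrM:14011-14070, minus strand), its neighbour mt-Nd5 (chrM:11742-11801, plus strand) and mt-Co1 (chrM:5328-5387, plus strand) read as follows, with the first codon in capitals.
mt-Nd6: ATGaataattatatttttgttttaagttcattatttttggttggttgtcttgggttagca
mt-Nd5: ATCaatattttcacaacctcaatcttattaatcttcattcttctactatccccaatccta
mt-Co1: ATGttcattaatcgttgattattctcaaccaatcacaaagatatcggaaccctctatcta
The difference in base use is visible by eye, in the runs of t and g of mt-Nd6 and in the line of mt-Nd5, which holds no g. mt-Nd5 and mt-Nd6 share 14 bases on opposite strands, and the strand setting of the counting is not given in the sources used here, so reads from RNA of the opposite strand cannot be told apart from reads of mt-Nd6.

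Some neighbours on the same strand overlap too. mt-Atp8 (204 bases) and mt-Atp6 share 43 bases in another reading frame, and mt-Nd4l and mt-Nd4 share 7 bases; these stretches are shown in capitals with 12 bases on each side (chrM:7915-7981 and chrM:10155-10185, plus strand), because they bear on how far the values of these pairs can be read.
mt-Atp8/mt-Atp6: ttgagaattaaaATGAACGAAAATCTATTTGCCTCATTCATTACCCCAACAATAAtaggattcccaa
mt-Nd4l/mt-Nd4: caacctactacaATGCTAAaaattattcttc
Both pairs are known to lie on shared mRNAs, yet their FPKM values were far apart: over the 12 libraries mt-Atp8 averaged 11274 FPKM and mt-Atp6 813 FPKM, and mt-Nd4l averaged 0.165 FPKM beside mt-Nd4, which was at 631.5 FPKM or more in every library. The values of mt-Atp8, mt-Atp6, mt-Nd4l and mt-Nd4 are therefore uncertain as levels, and the cause of these gaps was not tested.

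The 12 libraries had FPKM sums between 555675 and 691948, highest in EC GFP− (625401 to 691948), and between 12147 and 12779 genes at FPKM 1 or more. Depth in reads is unknown, since the values are not whole reads. Libraries of 1 group correlated at r of 0.956 to 0.979 over the tested genes and libraries of different groups at 0.899 to 0.968. Ly6a, the gene of the reporter, averaged 5.83 FPKM in HC GFP+ and 0.768 in HC GFP−, and 8.76 FPKM in EC GFP+ against 0.896 in EC GFP−. Of the markers of other cells, the 9 erythroid genes summed to 839 to 1168 FPKM in HC GFP+ against 6414 to 9810 in HC GFP−, and to 959 to 2441 FPKM in EC GFP+ against 3369 to 7826 in EC GFP−. All 9 were lower past the threshold in EC GFP+ than in EC GFP−. The 10 macrophage genes summed to 268 to 1537 FPKM in HC GFP+ and 252 to 810 in HC GFP−, against 15.9 to 36.4 in EC GFP+ and 11.7 to 17.6 in EC GFP−. The 10 mesenchymal genes ranged over 123 to 232 FPKM in HC GFP+, 163 to 458 in HC GFP−, 156 to 241 in EC GFP+ and 117 to 496 in EC GFP−, and the 10 muscle genes stayed between 16.7 and 54.5 FPKM. The 5 endothelial genes summed to 1821 to 1899 FPKM in EC GFP+ against 1139 to 1468 in EC GFP−. Their sums in HC GFP+ (1154 to 1313) and HC GFP− (956 to 1326) overlapped those in EC GFP−. The 5 hematopoietic genes reached 72.7 to 82.3 FPKM in HC GFP+, 37.4 to 40.6 in HC GFP−, 24.1 to 37.2 in EC GFP+ and 23.9 to 36.4 in EC GFP−. No gene of these lists was at 0 in all libraries of a group, and the part of other cells in the results below was not tested.

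Mitochondrially encoded members took a larger share of the EC GFP− libraries than of any others, while the share of the nuclear members differed little. The 13 mitochondrial genes made up 4.90%, 4.29% and 3.73% of the summed FPKM in HC GFP+, 5.04%, 5.27% and 5.67% in HC GFP−, 5.89%, 6.35% and 4.61% in EC GFP+, and 8.41%, 8.64% and 8.57% in EC GFP−. The 3 EC GFP− libraries stood above the other 9. HC GFP+ lay wholly below HC GFP−, and EC GFP+ overlapped both. The 83 nuclear genes made up 2.35% to 2.64% in HC GFP+, 2.60% to 2.62% in HC GFP−, 2.41% to 2.49% in EC GFP+ and 2.55% to 2.86% in EC GFP−. The log2 ratio of the mitochondrial to the nuclear sum was 0.80 ± 0.28 in HC GFP+, 1.03 ± 0.09 in HC GFP−, 1.19 ± 0.23 in EC GFP+ and 1.66 ± 0.09 in EC GFP− (SD, n = 3 libraries each). Its libraries ranged from 0.50 to 1.06 in HC GFP+, 0.96 to 1.13 in HC GFP−, 0.93 to 1.35 in EC GFP+ and 1.58 to 1.76 in EC GFP−, so that only EC GFP− lay apart from every other group. Much of that distance was 1 gene: mt-Atp8 made up 36.02% to 42.9% of the mitochondrial sum in EC GFP−, against 18.7% to 24.3% in HC GFP+, 23.3% to 25.9% in HC GFP− and 26.1% to 32.7% in EC GFP+. Without mt-Atp8, an alternative chosen after the data were seen, the mean log2 ratios were 0.45, 0.63, 0.70 and 0.92 in the same order of groups, and EC GFP− overlapped EC GFP+. These sums are given without a test.

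**Figure D1:**
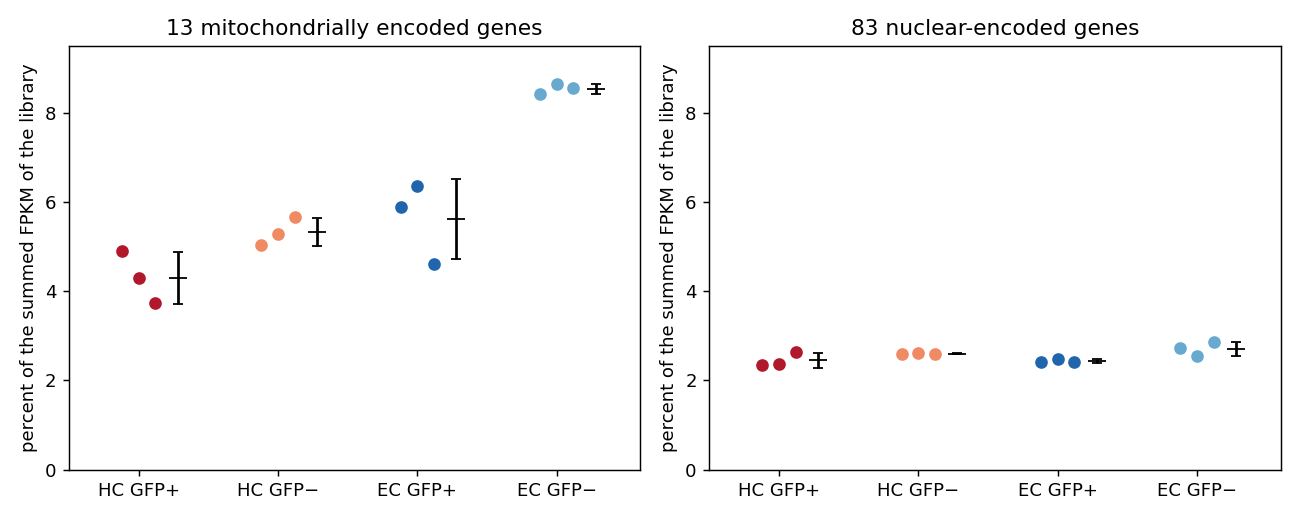
Percent of the summed FPKM of each library held by the 13 mitochondrially encoded genes (left) and the 83 nuclear-encoded genes (right) in HC GFP+, HC GFP−, EC GFP+ and EC GFP−; points are libraries, bars the mean ± SD (n = 3). The mitochondrial share was 8.41% to 8.64% in EC GFP− and at most 6.35% in the other groups, whereas the nuclear share lay between 2.35% and 2.86% throughout.

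Within the nuclear part, FPKM is per length, but levels of different genes can be set beside each other only roughly. Of the 78 tested nuclear members, 58 have transcripts under 1000 bases. Over the 12 libraries the median member of ATP synthase stood at 305 FPKM, that of complex III at 182, complex IV at 179, complex II at 107 and complex I at 104. Atp5b, the catalytic beta subunit of ATP synthase, was the highest nuclear member at 1488 FPKM. The highest listed member of complex IV was Cox6a1 at 529.6 FPKM, the ubiquitous form of subunit 6a. Cox4i1, the ubiquitous form of subunit 4, had no row under that symbol among the members and is not covered here. The highest named as complex I was Ndufa4 at 460.2 FPKM. Uqcrh, the hinge subunit beside cytochrome c1, led complex III at 306 FPKM and Sdha, the flavoprotein, led complex II at 127. At the low end stood Ndufa11 at 17.6 FPKM, a membrane-arm subunit, Uqcrfs1, the Rieske iron-sulfur protein, at 92.4 FPKM and Sdhd, a membrane anchor, at 97.3 FPKM, while Cox7b2 at 0.0215 FPKM and Atp5l2 at 0.0330 FPKM were hardly detected. The 4 subunits of complex II thus spanned 97.3 to 127 FPKM. The 36 named as complex I spanned 17.6 to 460.2 FPKM, a range that also rests on more genes.

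Across libraries the nuclear members ranged less than the mitochondrial ones. Their median range between the lowest and the highest library was 0.68 on the log2(FPKM + 1) scale, against 1.31 for the 12 mitochondrial members. The range over all tested genes was not determined. The narrowest range was that of Ndufs1, the largest iron-sulfur subunit of complex I, at 0.30. The widest were those of mt-Nd6 at 2.90, mt-Atp8 at 2.52 and 3 low tissue forms of complex IV. The highest library was an EC GFP− library for 67 of 78 nuclear members and for 12 of 12 mitochondrial ones. EC GFP− also had the highest FPKM sums. The share of all tested genes with their highest library there was not determined, so these counts are not read as particular to the members.

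Between EC GFP+ and EC GFP−, the question was how endothelium with reporter activity differs from endothelium without it. Every tested mitochondrial member was lower in EC GFP+, 9 of 12 past an adjusted p of 0.05 (limma on log2(FPKM + 1), Benjamini-Hochberg over 13278 genes), and none was higher. Of all tested genes 6.51% were lower by this rule and 6.96% higher. The median log2 fold change of the mitochondrial members was −0.68, beside −0.03 for all tested genes. The FPKM of mt-Nd6, a membrane-arm subunit of complex I, fell furthest, with a log2 fold change of −2.13 ± 0.20 (SE, adjusted p = 7.98e-05 by limma). The libraries were poly(A)-selected, whereas the mt-Nd6 mRNA has no or little poly(A) tail in mammals, and the strand setting is not given. Its FPKM may therefore not follow its mRNA level, which was not tested. mt-Atp8, a stator subunit of ATP synthase, followed with −1.30 ± 0.20 (adjusted p = 0.00171 by limma).

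The next genes were further complex I subunits of the membrane arm. mt-Nd2 stood at 657, 771 and 474 FPKM in EC GFP+, against 1008, 1081 and 1307 FPKM in EC GFP−, with no overlap (log2 fold change −0.86 ± 0.17, adjusted p = 0.00859). mt-Nd3 stood at 1284, 1803 and 1134 FPKM in EC GFP+, against 2523, 2085 and 3052 FPKM in EC GFP− (−0.87 ± 0.18, adjusted p = 0.00981). For both genes the lowest EC GFP+ library was replicate 3 and the highest EC GFP− library replicate 3. mt-Nd1, which lies at the ubiquinone site, averaged 1815 ± 410 FPKM in EC GFP+ and 2869 ± 314 FPKM in EC GFP− (SD, n = 3 each; adjusted p = 0.016 by limma). The mitochondrially encoded subunits of complex IV divided. mt-Co2, which carries the copper centre that takes electrons from cytochrome c, fell by 0.68 and mt-Co3 by 0.64 on the log2 scale. In contrast mt-Co1, which holds the haem-copper site, did not pass, at 4617, 6038 and 4345 FPKM in EC GFP+ and 5625, 5271 and 6161 FPKM in EC GFP−. mt-Cytb, the cytochrome b of complex III, was at 2265 ± 377 FPKM in EC GFP+ and 2941 ± 241 FPKM in EC GFP− and did not pass either (adjusted p = 0.0961 by limma). mt-Atp6 fell by 0.71 and mt-Nd4 by 0.52 on the log2 scale, and mt-Nd5 did not pass (−0.40 ± 0.15).

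The third replicates carried part of these calls. Without EC GFP+ replicate 3, 4 mitochondrial members passed, and without EC GFP− replicate 3 also 4; leaving out the first took the log2 fold changes to −0.52 for mt-Co2, −0.52 for mt-Nd1, −0.49 for mt-Co3, −0.36 for mt-Nd4 and −0.51 for mt-Atp6, and leaving out the second to −0.63, −0.59, −0.53, −0.47 and −0.63 for the same genes, all short of the threshold. mt-Co3 and mt-Atp6 were also lost without EC GFP+ replicate 1 (−0.60 and −0.75) and without EC GFP− replicate 1 (−0.65 and −0.75), and mt-Nd4 without EC GFP+ replicate 1 (−0.53) and without EC GFP− replicate 2 (−0.50). At equal FPKM sums 7 of 12 passed, with mt-Nd4 (−0.32) and mt-Atp6 (−0.50) lost, as they also were at equal sums without globin and mitochondrial genes (−0.37 and −0.56). After quantile normalization 2 of 12 passed; there mt-Atp8, which ranked first in these libraries, had a log2 fold change of 0 by construction. The mitochondrial ribosomal RNAs, which are no members, were also measured, but in poly(A)-selected libraries their values may not follow their levels. mt-Rnr2 was at 87.3 to 180.0 FPKM in EC GFP+ and at 259 to 493 FPKM in EC GFP−, without overlap. mt-Rnr1 was at 146, 516 and 171 FPKM in EC GFP+ and at 481, 419 and 829 FPKM in EC GFP−, which overlap.

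**Figure D2:**
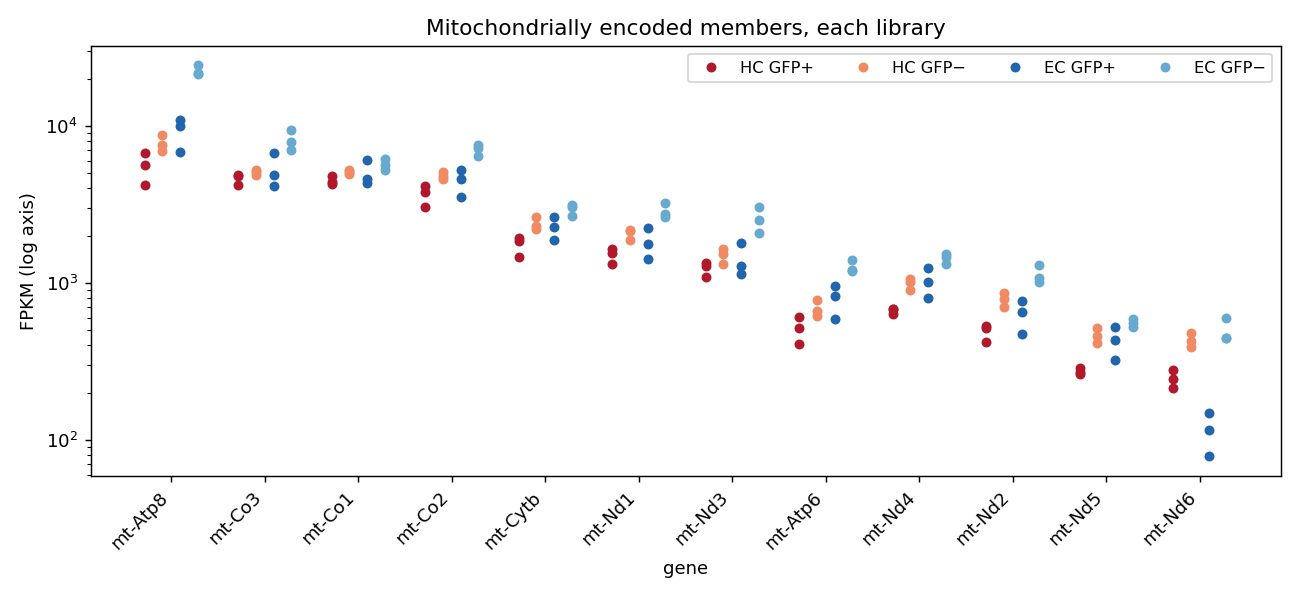
FPKM of the 12 tested mitochondrially encoded members on a log axis, each point a library and each colour a group. For 10 of 12 genes the EC GFP+ libraries all lay below the EC GFP− libraries, and mt-Nd6 was the gene for which EC GFP+ was also below both HC groups.

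By its FPKM, with the limits of poly(A) selection and strand given above, mt-Nd6 separated EC GFP+ from all other libraries. It stood at 116.5, 149 and 78.7 FPKM in EC GFP+, against 448, 444 and 594 FPKM in EC GFP−. In the clusters it stood at 213, 244 and 277 FPKM in HC GFP+, against 393, 427 and 479 FPKM in HC GFP−. The order of the groups was therefore EC GFP+, HC GFP+, HC GFP− and EC GFP− from low to high, with the upper 2 groups overlapping and the lower 2 apart from each other and from the rest. As a ratio of means, EC GFP+ held 0.232 of the EC GFP− level. HC GFP+ held 2.13 times the EC GFP+ level (log2 fold change 1.13 ± 0.20, adjusted p = 0.0041 by limma), the opposite direction to the other 11 mitochondrial members in that comparison. These calls, in EC and between the GFP+ populations, passed the threshold under each of 20 alternative settings.

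Set against its neighbour on the opposite strand, mt-Nd6 was low in EC GFP+ too, under the same limits. The ratio of mt-Nd6 to mt-Nd5 FPKM, which no scaling of a whole library by 1 factor can alter, was 0.267, 0.285 and 0.244 in EC GFP+. It was 0.859, 0.801 and 1.01 in EC GFP−, 0.810, 0.851 and 1.03 in HC GFP+, and 0.951, 0.934 and 0.921 in HC GFP−. The 9 libraries of those 3 groups lay together and the EC GFP+ libraries lay far below them; the ratio was formed with the values known and is given without a test. In HC, where mt-Nd6 and mt-Nd5 fell by 0.82 and 0.75 on the log2 scale in GFP+, the ratio showed no such gap. The difference between the GFP effect in HC and that in EC was 1.31 ± 0.29 for mt-Nd6 on the log2 scale and did not pass over all genes (adjusted p = 0.0758 by limma); without EC GFP+ replicate 2 it was 1.52 and passed.

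**Figure D3:**
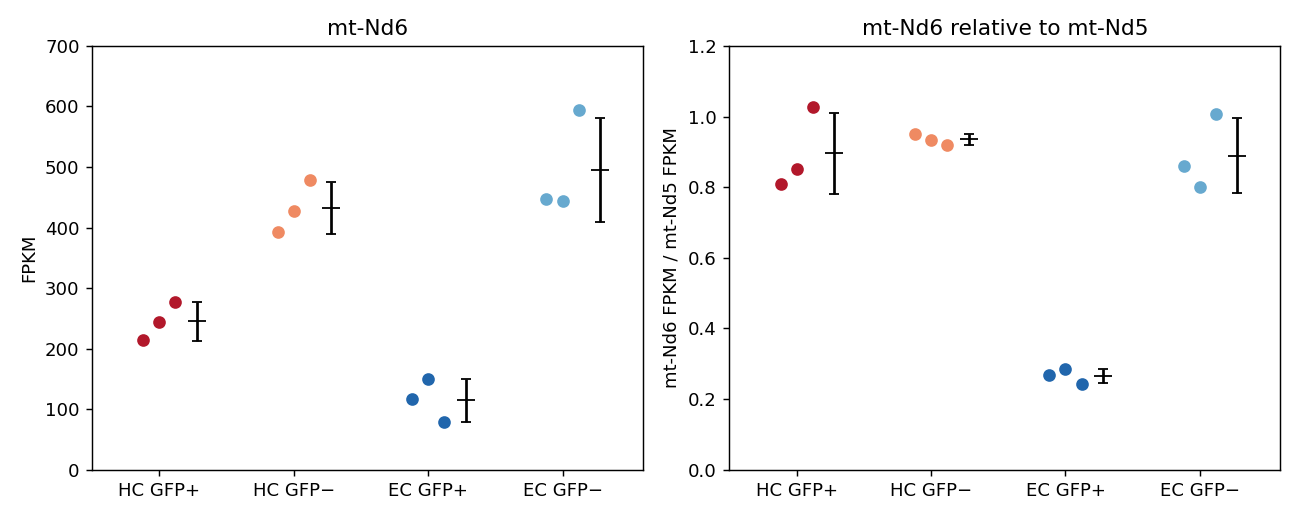
FPKM of mt-Nd6 (left) and its ratio to mt-Nd5 (right) by library in HC GFP+, HC GFP−, EC GFP+ and EC GFP−; points are libraries, bars the mean ± SD (n = 3). EC GFP+ had 78.7 to 149 FPKM and ratios of 0.244 to 0.285, below all libraries of the other groups.

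Among nuclear members, calls were found in complexes I, III, IV and V, all of them lower in EC GFP+. In all, 28 of 78 were lower past the threshold and none was higher, against 6.51% and 6.96% of all tested genes, and the median log2 fold change was −0.34, beside −0.03 for all. Only 4 of 78 had a positive fold change. The EC GFP+ libraries all lay below the EC GFP− libraries for 44 of 78 nuclear and 10 of 12 mitochondrial members, which was the case for 16.7% of all tested genes. By complex, 12 of 36 members passed in complex I, 0 of 4 in complex II, 3 of 8 in complex III, 5 of 13 in complex IV and 8 of 17 in ATP synthase. The medians were −0.34, −0.30, −0.28, −0.37 and −0.35 in that order, so complex II had no call, though 3 of its 4 genes were lower at an unadjusted p under 0.05, as were 16.3% of all tested genes.

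In complex I the accessory subunits led. Ndufa12, which sits at the matrix arm, was at 52.1, 64.8 and 57.4 FPKM in EC GFP+, against 94.8, 95.0 and 122 FPKM in EC GFP− (log2 fold change −0.83 ± 0.12, adjusted p = 0.0013). Ndufs4, whose loss gives a Leigh-like encephalopathy in mice, was at 43.3, 45.7 and 42.1 FPKM in EC GFP+, against 60.6, 59.7 and 71.2 FPKM in EC GFP− (−0.53 ± 0.08, adjusted p = 0.00217). Ndufc1, of the membrane arm, was at 25.8, 29.7 and 35.8 FPKM in EC GFP+, against 51.4, 47.0 and 64.5 FPKM in EC GFP− (−0.82 ± 0.14, adjusted p = 0.00291). In each of these the groups stood well apart. Of the 7 conserved core subunits, which hold the flavin and the iron-sulfur centres, only Ndufv2 passed, at 66.6 ± 8.53 FPKM in EC GFP+ and 105.6 ± 17.2 FPKM in EC GFP−, and the median of the 7 was −0.16. Ndufs1, another core subunit, was at 39.8, 36.2 and 39.0 FPKM in EC GFP+ and 42.4, 44.8 and 36.8 FPKM in EC GFP−, which overlap.

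In complex II, Sdha was at 152, 142 and 124 FPKM in EC GFP+ and at 119, 136 and 106 FPKM in EC GFP−, with a positive log2 fold change of 0.21 ± 0.11 that did not pass (adjusted p = 0.217). Its partner Sdhb, the iron-sulfur subunit, was at 93.2, 114 and 89.6 FPKM in EC GFP+ and 133, 105 and 159 FPKM in EC GFP−, a fold change of the other sign (−0.40 ± 0.14, adjusted p = 0.0854). In complex III, Uqcrb was at 177, 186 and 168 FPKM in EC GFP+, against 213.5, 239 and 231.5 FPKM in EC GFP− (−0.36 ± 0.07, adjusted p = 0.00922 by limma). Uqcrb lost its call when the libraries were scaled to equal FPKM sums (−0.16), with or without globin and mitochondrial genes (−0.22 without), or quantile normalized (−0.21).

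In complex IV, Cox7c, a small accessory subunit, was at 353, 372 and 349.9 FPKM in EC GFP+, against 542, 474 and 524.5 FPKM in EC GFP− (−0.51 ± 0.11, adjusted p = 0.00922). The ubiquitous form Cox7a2 averaged 124 ± 17.9 FPKM in EC GFP+ and 183 ± 17.6 FPKM in EC GFP− (SD, n = 3 each; adjusted p = 0.0122 by limma). In ATP synthase, Atp5b was at 1427, 1264 and 1307 FPKM in EC GFP+, against 1840, 1660 and 1987 FPKM in EC GFP− (−0.45 ± 0.09, adjusted p = 0.00623). Atp5b lost its call after quantile normalization (−0.10) and with these groups alone in the model (adjusted p = 0.054 by limma). Its partner in the catalytic head, Atp5a1, was at 401 ± 28.4 FPKM in EC GFP+ and 469 ± 40.5 FPKM in EC GFP− and did not pass (adjusted p = 0.0992 by limma). The c subunit of the rotor ring is encoded by 3 genes with the same mature protein. Of these Atp5g1 and Atp5g3 fell in EC GFP+, while Atp5g2 was at 404, 466 and 408 FPKM in EC GFP+ and 473, 429 and 473 FPKM in EC GFP− and did not pass.

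The count of nuclear calls depended on single libraries and on the scaling. Erythroid markers and the FPKM sum of the libraries also differed between the EC groups, as given above, and their part in these calls was not tested. It was 9 without EC GFP+ replicate 1, 8 without EC GFP+ replicate 3, 14 without EC GFP− replicate 1, 8 without EC GFP− replicate 3 and 51 without EC GFP− replicate 2. It was 10 at equal FPKM sums (9 of them lower), 13 after quantile normalization and 7 with these 2 groups alone in the model. All 28 genes kept a negative fold change under each of these settings, and Ndufa12, Ndufs4, Ndufc1 and Cox7c passed in all 20 alternatives. Scaling to equal FPKM sums moved the median of all tested genes by 0.17 on the log2 scale, so changes are also given relative to it: the nuclear median minus that of all genes was −0.31 as deposited, −0.28 at equal sums and −0.19 after quantile normalization, and the mitochondrial one −0.65, −0.62 and −0.22. At equal sums 1919 genes were higher and 286 lower among all tested, in place of 924 and 865.

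**Figure D4:**
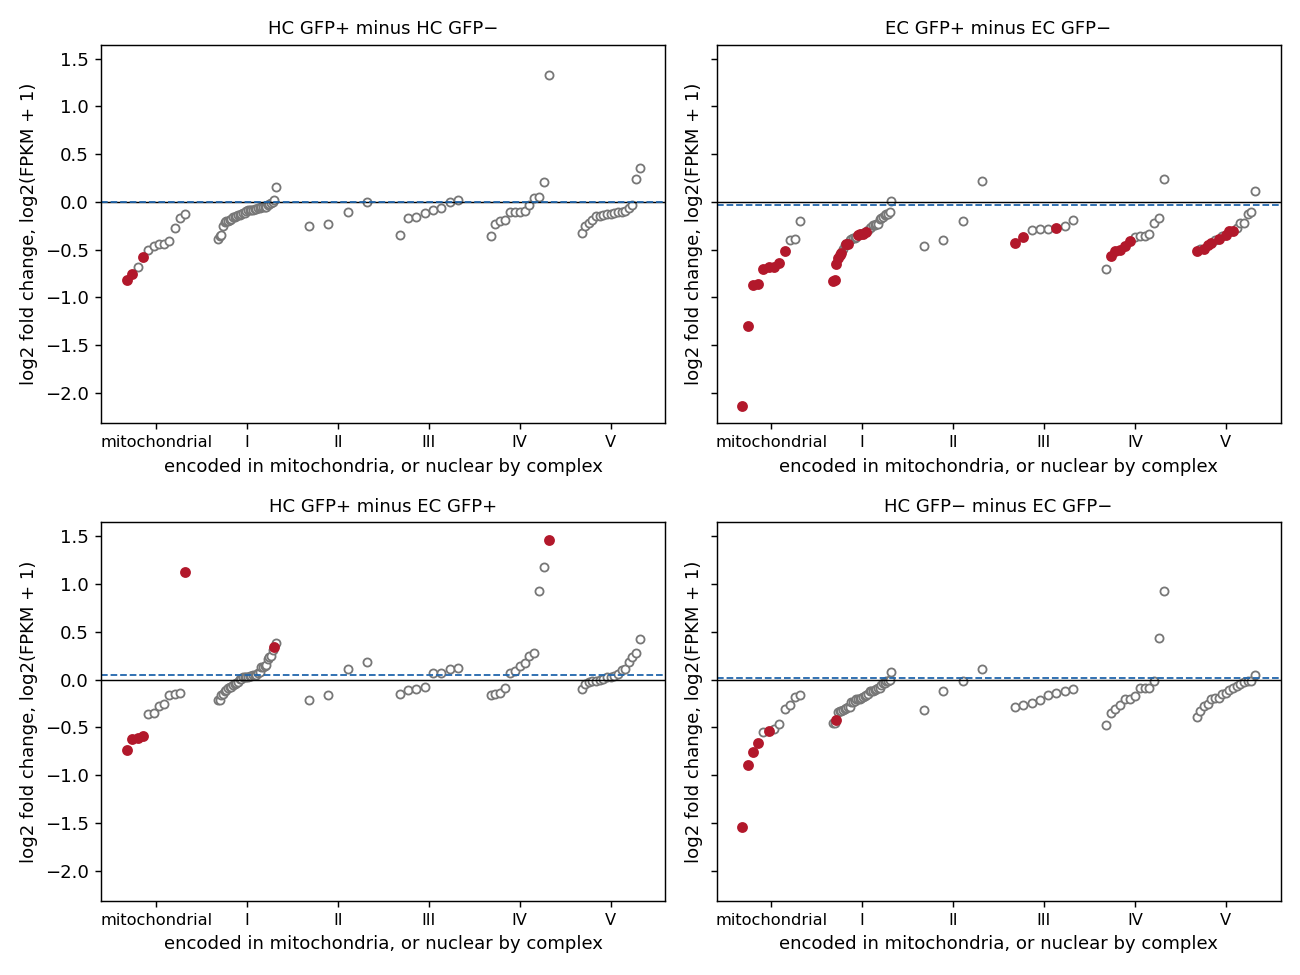
Log2 fold change on the log2(FPKM + 1) scale of each tested member in the 4 comparisons, with mitochondrial members first and nuclear members by complex; filled red points passed an adjusted p of 0.05, open points did not, and the dashed line is the median of all 13278 tested genes. EC GFP+ minus EC GFP− has 9 mitochondrial and 28 nuclear filled points, all below 0, and HC GFP+ minus HC GFP− has 3 mitochondrial ones.

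Nuclear genes that serve the chain without being members are given by list, to be read against the 6.51% of all tested genes that were lower in EC GFP+. Of the assembly factors 3 of 41 fell, 7.32%, a share near that of all genes. Ndufaf2, a paralog of Ndufa12 that acts in building complex I, was at 34.1 ± 4.51 FPKM in EC GFP+ and 66.0 ± 10.9 FPKM in EC GFP− (log2 fold change −0.93 ± 0.12, adjusted p = 0.000747 by limma); the others were Lyrm7 and Uqcc2, both of complex III assembly. Of 27 genes of mitochondrial DNA maintenance and expression 4 fell, 14.8%. Tfam, which packages and transcribes mitochondrial DNA, was at 24.7 ± 3.18 FPKM in EC GFP+ and 48.3 ± 4.85 FPKM in EC GFP− (−0.94 ± 0.13, adjusted p = 0.000929 by limma). Slirp, a partner of Lrpprc in keeping mitochondrial mRNAs, was at 60.8 ± 8.91 FPKM in EC GFP+ and 93.0 ± 7.37 FPKM in EC GFP− (−0.61 ± 0.11). Hsd17b10, a part of mitochondrial RNase P, and Ssbp1, which binds single-stranded mitochondrial DNA, were the other 2. Of 12 regulators of mitochondrial biogenesis none passed in either direction, with 3 lower and none higher at an unadjusted p under 0.05, where 16.3% of all genes were lower.

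The mobile carriers and their synthesis gave 2 of 19 lower, 10.5%, Coq7, a hydroxylase of ubiquinone synthesis, and Cycs, cytochrome c, which was at 30.5 ± 1.74 FPKM in EC GFP+ and 47.7 ± 2.14 FPKM in EC GFP− (adjusted p = 0.0106 by limma). Of 7 further subunits or regulators under other symbols 4 fell: 2010107E04Rik, Usmg5, Atpif1, the inhibitor of ATP synthase, and Ndufab1, the acyl carrier protein. Of 19 genes of the citric acid cycle 4 fell, Pcx, Idh3a, Fh1 and Suclg1, by 0.50, 0.42, 0.29 and 0.36 on the log2 scale. The adenine nucleotide carriers Slc25a4 and Slc25a5 were the 2 that fell of 11 in the list of carriers, uncouplers and antioxidant genes. No gene in any of these 7 lists was higher past the threshold in EC GFP+.

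Ribosomal protein genes were also often lower in EC GFP+, where 6.51% of all tested genes were lower past the threshold. Of 77 cytosolic ribosomal protein genes, 44 were lower in EC GFP+ with a median log2 fold change of −0.38, and of 79 mitochondrial ribosomal protein genes 15 were lower with a median of −0.28. The nuclear members have a median transcript length of 655 bases in GENCODE M21, against 2135 for all tested genes with a length, and 58 of 78 are under 1000 bases. In EC GFP+ against EC GFP−, tested genes outside the members had a median log2 fold change of −0.12 when under 1000 bases and 0.06 at 4000 bases or more. Of the 2229 short ones 11.6% were lower past the threshold, against 41.4% of the 58 short members, whose median was −0.36. The correlation of length with fold change was a Spearman rho of 0.29 over 78 nuclear members and 0.19 over 12283 genes, a description across genes that share the libraries. The part of transcript length in these calls was not tested.

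**Figure D5:**
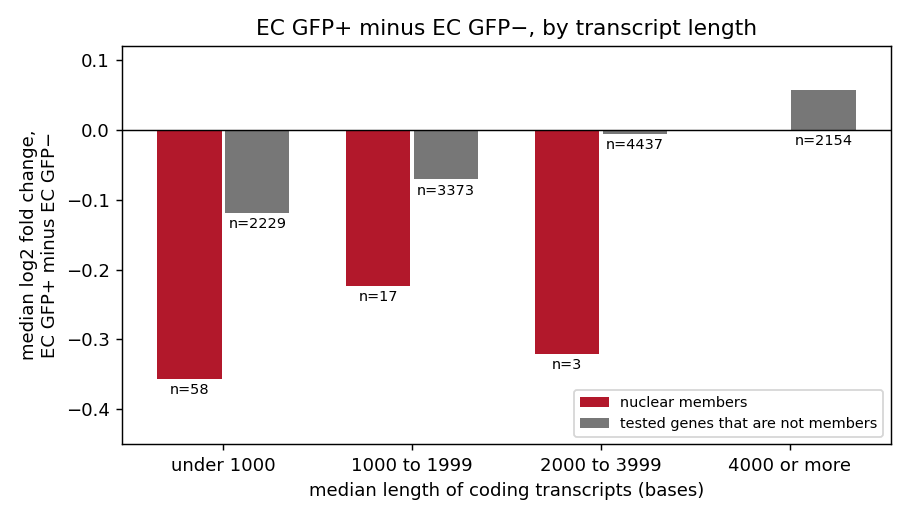
Median log2 fold change of EC GFP+ minus EC GFP− by median coding transcript length, for nuclear members (red) and other tested genes (grey), with the number of genes under each bar. In the class under 1000 bases the median was −0.36 for 58 members and −0.12 for 2229 other genes; no member is 4000 bases or longer.

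Between HC GFP+ and HC GFP− the mitochondrial part was lower and the nuclear part gave no call. In HC GFP+ 3 of 12 mitochondrial members fell and none rose, against 1.28% of all tested genes lower and 2.98% higher. mt-Nd5 was at 263.5, 286.5 and 270.0 FPKM in HC GFP+, against 413, 456.5 and 519.6 FPKM in HC GFP− (log2 fold change −0.75 ± 0.15, adjusted p = 0.0151). mt-Nd4 was at 685, 681 and 631.5 FPKM in HC GFP+, against 907.5, 1015 and 1052 FPKM in HC GFP− (−0.57 ± 0.13, adjusted p = 0.0359). mt-Nd6 passed narrowly (−0.82 ± 0.20, adjusted p = 0.047). All 3 are complex I subunits, and 10 of 12 mitochondrial members and 12 of 78 nuclear ones had HC GFP+ libraries wholly below HC GFP−, which held for 10.5% of all tested genes.

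These 3 calls were fragile. The count was 0 when replicate 1 or 3 of HC GFP+, or replicate 3 of HC GFP−, was left out. It was 1 when replicate 2 of HC GFP+, or replicate 1 or 2 of HC GFP−, was left out. It was 1 also without EC GFP+ replicate 1, which enters only the estimate of spread. Over all 20 settings the log2 fold change ranged from −0.83 to −0.67 for mt-Nd5 and from −0.92 to −0.73 for mt-Nd6. For mt-Nd4 it ranged from −0.64 to −0.39. The call was lost in 3 of these settings for mt-Nd5, in 9 for mt-Nd4 and in 13 for mt-Nd6. Erythroid markers were lower in HC GFP+ as well, and their part was not tested. Of the 78 nuclear members 1 was higher and 7 were lower at an unadjusted p under 0.05, beside 9.75% of all tested genes higher and 7.26% lower, so the share of lower members was near that of all genes. None passed the adjusted threshold, and their median was −0.11 beside 0.00 for all genes. Ndufa12, second by p after Cox4i2, was at 69.1 ± 8.03 FPKM in HC GFP+ and 88.4 ± 4.38 FPKM in HC GFP− (adjusted p = 0.147 by limma). Of the other lists only Pcx, pyruvate carboxylase, was called in HC, at 4.05 ± 0.0249 FPKM in HC GFP+ and 6.39 ± 0.0929 FPKM in HC GFP− (−0.55 ± 0.11, adjusted p = 0.0142 by limma).

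Between the GFP+ populations, HC GFP+ against EC GFP+, few nuclear members differed, and 11 of 12 mitochondrial members had a negative fold change, mt-Nd6 being the exception. Among nuclear members 2 of 78 were higher in HC GFP+ and none lower, against 8.21% of all genes higher and 6.09% lower, and the median log2 fold change was 0.03 beside 0.05 for all, turning to −0.01 at equal FPKM sums without globin and mitochondrial genes. Ndufs6, a matrix-arm subunit that carries zinc, was at 105.8, 105.5 and 111.6 FPKM in HC GFP+, against 90.9, 84.9 and 78.6 FPKM in EC GFP+ (0.34 ± 0.10, adjusted p = 0.0346). The other, Cox7a1, passed the filter through HC and was under 1 FPKM in every EC GFP+ library. Its call was lost in 13 of 19 alternative settings, and it is described with the tissue forms. The nuclear count was 0 when replicate 2 or 3 of HC GFP+, replicate 1 of HC GFP− or replicate 3 of EC GFP+ was left out, and 4 without replicate 2 or 3 of EC GFP−. It was 1 without replicate 1 of any group but HC GFP−, replicate 2 or 3 of HC GFP−, or replicate 2 of EC GFP+. Of the mitochondrial members 4 fell, mt-Nd4 by 0.59, mt-Nd5 by 0.62, mt-Atp8 by 0.74 and mt-Atp6 by 0.62 on the log2 scale, and mt-Nd6 rose as given above. The call of mt-Atp6 (adjusted p = 0.0445 by limma) was lost in 13 of 20 alternative settings, and its libraries overlapped. That of mt-Atp8 was lost in 7, that of mt-Nd5 in 5 and that of mt-Nd4 in 1.

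mt-Nd5 was at 263.5, 286.5 and 270.0 FPKM in HC GFP+, against 436, 523 and 323 FPKM in EC GFP+, which do not overlap. mt-Atp8 was at 6717, 5676 and 4232 FPKM in HC GFP+ and at 10916, 10038 and 6872 FPKM in EC GFP+, where the third EC GFP+ library came close to the first HC GFP+ library. The count of mitochondrial calls was 3 without HC GFP+ replicate 2. It was 2 when replicate 3 of HC GFP+, or replicate 1 or 2 of EC GFP+, was left out. mt-Nd5 lost its call without replicate 1 (−0.59) or 3 (−0.61) of HC GFP+ and without replicate 1 (−0.59) or 2 (−0.46) of EC GFP+, while mt-Nd4 held in every such fit. Calls in the other lists were few: higher in HC GFP+ were 3 of 41 assembly factors, 2 of 27 genes of mitochondrial DNA expression, 3 of 12 biogenesis regulators, 2 of 19 genes of the carriers, 1 of 19 of the citric acid cycle and 2 of 11 antioxidant and carrier genes, and none was lower, where 8.21% of all genes were higher. Tfam was at 39.3 ± 6.55 FPKM in HC GFP+ and 24.7 ± 3.18 FPKM in EC GFP+ (0.65 ± 0.13, adjusted p = 0.00732 by limma), and Ndufaf2 at 54.1 ± 2.84 FPKM in HC GFP+ and 34.1 ± 4.51 FPKM in EC GFP+ (0.66 ± 0.12, adjusted p = 0.00507 by limma). This comparison and that of EC GFP+ with EC GFP− share the EC GFP+ libraries. Also higher in HC GFP+ were Ndufaf1 and Ndufaf7 among assembly factors, Peo1, the mitochondrial DNA helicase, Yy1, Nfe2l2 and Sirt3 of the biogenesis regulators, Suclg2 of the citric acid cycle, Coq7 and Pdss1 of ubiquinone synthesis, and Gpx1 and Sod2 of the antioxidant genes.

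Between the GFP− populations, HC GFP− against EC GFP−, 5 of 12 mitochondrial members fell and none rose, against 1.93% of all genes lower and 2.36% higher. mt-Atp8 was at 6932, 7551 and 8816 FPKM in HC GFP−, against 24286, 21898 and 21348 FPKM in EC GFP− (log2 fold change −1.54 ± 0.20, adjusted p = 0.00339), the largest gap of any member here as deposited; after quantile normalization it was 0 by construction of the ranks. mt-Atp6, mt-Nd3, mt-Co3 and mt-Nd4 fell by 0.89, 0.76, 0.66 and 0.54 on the log2 scale. After quantile normalization mt-Co3 (−0.11) and mt-Nd4 (−0.40) also lost their calls, and mt-Nd4 did so at equal FPKM sums (−0.40). mt-Nd6 was at 393, 427 and 479 FPKM in HC GFP− and at 448, 444 and 594 FPKM in EC GFP−, which overlap (−0.19 ± 0.20, adjusted p = 0.683), and its log2 fold change turned to 0.0067 after quantile normalization. Of 78 nuclear members Ndufs4 alone fell, at 44.3, 47.0 and 50.6 FPKM in HC GFP− and 60.6, 59.7 and 71.2 FPKM in EC GFP− (−0.42 ± 0.08, adjusted p = 0.0216). The nuclear median was −0.17 beside 0.01 for all genes. HC GFP− libraries lay wholly below EC GFP− libraries for 20 of 78 nuclear and 11 of 12 mitochondrial members, against 10.4% of all genes. When replicate 1 or 3 of HC GFP−, or replicate 1 or 3 of EC GFP−, was left out, only mt-Atp8 passed of the mitochondrial members. The count was 2 without replicate 1 of HC GFP+ or of EC GFP+, and 3 without replicate 2 of HC GFP+ or of HC GFP−. Ndufs4 lost its call without replicate 1 of HC GFP− (−0.38), without replicate 1 (−0.46) or 3 (−0.34) of EC GFP− and at equal FPKM sums (−0.28). The nuclear count was 8, 5 and 3 without EC GFP− replicate 2, HC GFP+ replicate 3 and EC GFP+ replicate 2. Outside the members, Usmg5 and Slirp were lower in HC GFP−, by 0.58 and 0.51.

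No member passed in the difference between the GFP effect in HC and that in EC, where 0.527% of all tested genes did. At an unadjusted p under 0.05, 12 of 78 nuclear members and 3 of 12 mitochondrial members had a larger value in HC and none a smaller one, beside 6.25% of all tested genes larger and 5.24% smaller. The median difference was 0.23 for nuclear members, 0.24 for mitochondrial members and 0.04 for all genes on the log2 scale. These data therefore do not establish that the members respond to GFP status unequally in the clusters and the endothelium.

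The tissue-restricted forms of complex IV stayed low, and 3 of 7 were tested. Cox6b2 and Cox4i2 were at FPKM 1 or more in libraries of every group, whereas Cox7a1 passed the filter through HC. Cox4i2, a form of subunit 4 known from lung and from the response to low oxygen, was at 2.74, 4.57 and 4.37 FPKM in HC GFP+, against 1.15, 1.16 and 0.510 FPKM in HC GFP−. In EC it was at 1.91, 2.07 and 0.824 FPKM in GFP+ and 1.73, 0.237 and 1.95 FPKM in GFP− cells. The HC GFP+ libraries thus all lay above the other 9, but the HC difference missed the threshold (log2 fold change 1.33 ± 0.34, adjusted p = 0.0524 by limma). It passed in 6 of 19 alternative settings. These were equal FPKM sums (1.37), equal sums without globin and mitochondrial genes (1.34), quantile normalization (1.37) and the compared groups alone (1.33). The others were the fits without EC GFP− replicate 2 or EC GFP− replicate 3, with the same 1.33. Cox7a1, the form of heart and skeletal muscle, was at 4.25, 3.47 and 3.71 FPKM in HC GFP+, against 0.694, 0.873 and 0.649 FPKM in EC GFP+ (1.47 ± 0.42, adjusted p = 0.0379), a call that was lost when any 1 of the HC or EC GFP+ libraries was left out (1.40 to 1.52). It was at 3.87, 3.05 and 2.64 FPKM in HC GFP− and at 1.19, 3.78 and 0 FPKM in EC GFP−. Cox6b2, the testis form, was at 10.8, 8.33 and 10.2 FPKM in HC GFP+ and 2.42, 4.03 and 5.20 FPKM in EC GFP+, without overlap and short of the threshold (1.18 ± 0.37, adjusted p = 0.0534). The muscle forms Cox6a2 and Cox8b and the testis forms Cox7b2 and Cox8c were below the filter.

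The genes outside the members that followed them most closely over the 12 libraries were named by Pearson correlation of log2(FPKM + 1), with a mean FPKM of at least 5. For the mean of the nuclear members these were Commd1 (r = 0.986), Rpl11, Ensa, Rpl17 and Atpif1 (r = 0.973). For the mean of the mitochondrial members they included Ube2v2 (r = 0.970), Pfdn4, Ccne2 and Eif3e (r = 0.963). For mt-Nd6 they were 2810004N23Rik (r = 0.952), Ccdc58, Cfdp1, Rps15a and Ndufaf2 (r = 0.947). These were the highest of many correlations over libraries that fall into 4 groups and are given as a description.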

How the data were processed

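The authors deposited FPKM values per gene symbol for 12 libraries of poly(A)-selected RNA made with an NEBNext Ultra kit, per the labels. Per the submitters' processing notes Cufflinks and featureCounts were among the tools and the build was mm9; the sources used here do not give versions, the strand setting or any scaling between libraries. Read numbers could not be recovered and depth is unknown. All 12 columns of values belong to samples of the series.

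Per the labels, each group was pooled into 3 separate biological samples, and p-values reflect how far those pools vary. Values were analysed as log2(FPKM + 1), a pseudocount of 1 that understates changes of low genes, with limma 3.58.1 in R 4.3.3: 1 model with 4 group means, 8 residual degrees of freedom and an intensity trend, fitted to the 13278 genes that reached FPKM 1 in at least 3 libraries. Tests were two-sided, with Benjamini-Hochberg adjustment over all tested genes of each of 5 comparisons and a threshold of 0.05. Errors are SD over 3 libraries for levels and SE of the fit for fold changes. Scripts were tested on simulated data.

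Members and gene lists were chosen with earlier results of these data known. Named were all mitochondrial members, up to 6 nuclear members per comparison and direction with the smallest p (the first 2 where none passed), the highest and lowest member of each complex, the tissue forms, up to 4 called genes of each other list, and the 5 genes most correlated with each member set, of which 1 is not reported here; Ndufv2, Cox7a2, Atp5a1, the Atp5g genes, Ndufs1 and Sdhb were named after their values were seen. Alternatives were a pseudocount of 0.1, no filter, a mean FPKM of 5 or more, equal FPKM sums with and without globin and mitochondrial genes, quantile normalization, the compared groups alone, a replicate block, and each library left out. Sequences and lengths came from GENCODE M21 on GRCm38.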

Additional observations from a re-analysis of the deposited data

How the results depend on the processing

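In EC GFP+ against EC GFP−, the 28 nuclear members called (9 mitochondrial) became 14 (4) without a filter, 10 at equal FPKM sums, 13 at equal sums without globin and mitochondrial genes, 13 (2) after quantile normalization and 7 (3) with the compared groups alone, and leaving out 1 library gave 8 to 51 (4 to 10). For HC GFP+ against HC GFP−, 1 nuclear member passed at both equal-sum scalings, after quantile normalization and with the groups alone, in place of 0, and 1 mitochondrial member without a filter in place of 3; single libraries left out gave 0 to 2 and 0 to 4. For HC GFP+ against EC GFP+, nuclear calls were 1, 0, 1, 6 and 7 with a pseudocount of 0.1, no filter, the stricter filter, equal sums and quantile normalization in place of 2 (0 to 4 without 1 library), and mitochondrial calls 3 without a filter and 1 with the groups alone in place of 5 (2 to 6). For HC GFP− against EC GFP−, nuclear calls were 2 with a pseudocount of 0.1 and 0 at both equal-sum scalings in place of 1 (0 to 8), and mitochondrial calls 1 without a filter, 2 after quantile normalization and 3 with the groups alone in place of 5 (1 to 6). The 1 mitochondrial member to pass in the difference of GFP effects did so without EC GFP+ replicate 2 (0 to 1).

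Over all genes, calls were 363 under the stricter filter in HC (main 566, 321 to 654 without 1 library), 939 with the groups alone in EC (1789, 1004 to 2203), 1261 to 2090 between the GFP+ populations (1898), and 332 without a filter and 284 with the groups alone between the GFP− populations (569, 91 to 698). For the difference of GFP effects they were 39 with a pseudocount of 0.1, 39 under the stricter filter, 148 at equal sums and 134 at equal sums without globin and mitochondrial genes (70, 23 to 77 without 1 library). Scaling changed the split of calls into higher and lower: 1490 and 363 in EC at equal sums without globin and mitochondrial genes, 562 and 125 at equal sums against 313 and 256 as deposited between the GFP− populations (404 and 143 without globin and mitochondrial genes), and 950 and 1069 after quantile normalization against 1090 and 808 between the GFP+ populations. Equal sums moved the median of all genes by 0.12 between the GFP− populations and by −0.14 in the difference of GFP effects. For HC GFP− minus EC GFP−, mt-Nd6 reversed to 0.0067 after quantile normalization.

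Replicate numbers were not treated as pairs in the main model. Deviations of same-numbered libraries correlated at −0.06 to 0.27 and in no comparison all above 0.1. With 3 libraries per group these values cannot settle whether the numbers pair the samples. A replicate block gave 24 nuclear and 9 mitochondrial calls in EC, 0 and 2 in HC, and 2 mitochondrial calls in place of 5 between the GFP− populations. The log2 ratio of mitochondrial to nuclear level, as a difference of medians over members, was 3.41 in HC GFP+, 3.602 in HC GFP−, 3.56 in EC GFP+ and 3.99 in EC GFP−; without mt-Atp8 the ratio of sums was 0.45, 0.63, 0.70 and 0.92. Where no other cause is stated, the cause was not tested. The unknown depth and 3 libraries per group limit all calls of low genes.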
